A study of Mus musculus with 35 samples.

Results

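Arntl, Arntl2, Clock, Npas2, Nr1d1, Nr1d2, Rora and Rorb encode the activators of the circadian clock and the nuclear receptors that act on RORE sites. They were taken by gene name from the count tables and are 8 of the 49568 names listed there (36082 with any count). All 8 had enough counts to be tested. In the mammalian clock, BMAL1 (encoded by Arntl) pairs with CLOCK, or in the forebrain with its relative NPAS2, and the pair switches on genes with E-box sequences in their promoters. Among those genes are the Per and Cry repressors, which close the main loop, and Nr1d1 and Nr1d2, which encode the repressors REV-ERBα and REV-ERBβ. In a second loop the REV-ERBs compete with the activators RORα and RORβ for RORE sequences in genes such as Arntl itself, so that Arntl and the REV-ERB genes peak at opposite phases of the day. ARNTL2, also called BMAL2, is a relative of BMAL1 with a more restricted expression.

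A total of 35 polyA libraries came from hypothalami of male B6/J mice, all collected at Zeitgeber time 16, which is counted in hours from lights-on. Mice labelled Control, called wild type in the series' design text, had food at will (n = 10) or none for the 16 h from lights-on (n = 10). PER2-S662D mice, in which the clock repressor PER2 carries aspartate in place of a serine that can be phosphorylated, were fed (n = 5) or fasted (n = 5), and mice labelled Per2 ko were fasted only (n = 5). The labels do not say how the S662D form is carried, how the knockout was made, how old the mice were or whether they were littermates. Libraries of a group are numbered but not stated to come from separate mice, so p-values measure the spread between these libraries.

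Totals ran from 17959586 to 37027342 counts per library, and the 8 genes had 97 (Arntl2) to 9611 (Rora) counts in a library. The library numbers of the controls form a first set (replicates 1 to 5) and a second set (replicates 6 to 10), and those of the S662D mice and of the labelled knockouts form ranges of their own, which cannot be told apart from genotype. In both S662D groups the library numbers of replicates 2, 3 and 4 are longer by a final digit of unstated meaning. Values with or without these digit libraries are given for many of the results that depend on them, but not for all. A result printed without such values is not thereby shown to be free of the digit. Per2 checked the labels. The libraries labelled Per2 knockout had 33.4, 28.2, 29.5, 29.4 and 30.9 CPM of it (counts scaled to a common library total), a mean of 30.3 ± 2.00 (SD, n = 5), and fasted controls had 29.0 ± 2.45 CPM (n = 10). The log2 difference was 0.06 (SE 0.07; edgeR quasi-likelihood test, adjusted p = 0.935), so these counts go against the label, which is used below only as a label. The counts cover the whole gene, and whether they include the deleted part is not known. In S662D mice Per2 was lower, at 18.7 ± 1.98 CPM fed and 19.9 ± 2.38 CPM fasted (n = 5 each), against 28.2 ± 1.87 CPM in fed controls (n = 10). The 9 hypothalamic markers examined were all detected, with summed levels of 316.0 to 497.4 CPM per library, whereas the 6 pituitary markers summed to 1.61 to 6.39 CPM. Markers of other brain regions were detected too. The 6 cortical markers summed to 115.9 to 186.1 CPM, the 6 striatal ones to 106.4 to 199.1 CPM and the 7 thalamic ones to 1104 to 1650 CPM. The summed level of the 6 choroid plexus markers ranged from 20.0 to 1546 CPM between libraries.

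Short promoter sequences of these genes are shown first. RefSeq promoters on GRCm38.p6, which are the 300 bases around each annotated start and lie mostly upstream of it, were found for all 8 genes (12 promoters). They were searched on both strands for the E-box CACGTG, the weaker E-prime box CACGTT, the RORE (AANT followed by AGGTCA or GGGTCA) and the D-box (TTATGTAA or TTACGTAA), which do not overlap one another in the windows printed. Among 32851 mouse promoters of the same length, 7.15% held the E-box, 4.685% the E-prime box, 0.435% the RORE and 1.056% the D-box. Each window below is 30 bases on the gene's own strand, with the matched letters in capitals; AACGTG is CACGTT read on the other strand. Arntl was the only one of the 8 genes with a RORE, Nr1d1 and Rorb had an E-prime box, and none had an E-box or D-box in these windows.
Arntl, chr7:113207528-113207557, plus strand, RORE starting at base 28 of the transcript: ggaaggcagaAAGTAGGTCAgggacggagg
Nr1d1, chr11:98775388-98775417, minus strand, E-prime box starting 28 bases before the start: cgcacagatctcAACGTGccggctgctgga
Rorb, chr19:19001334-19001363, minus strand, E-prime box starting 234 bases before the second annotated start: agaatacacagcAACGTGattcatggggag

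Among genes used below as readouts of the activators, Ciart, Tef, Per1 and Bhlhe41 held an E-box (4 of 10 genes with a promoter in the table), and Cry1, counted with the RORE targets, held an E-box too. None of the 5 RORE targets with a promoter in the table held a RORE (0 of 5). Ciart and Tef fell in S662D mice, while Per1 and Bhlhe41 were not called between S662D and control. Cry1, which also held an E-prime box, rose, and Per3, which fell, held D-boxes and no E-box. E-box windows are printed for Ciart with 3 matches, Tef with 2 and Cry1 with 1, picked because these genes were called between S662D and control.
Ciart, chr3:95882327-95882356, minus strand: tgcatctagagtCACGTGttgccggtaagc
Ciart, chr3:95882269-95882298, minus strand: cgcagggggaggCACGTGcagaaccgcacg
Ciart, chr3:95882255-95882284, minus strand: cgtgcagaaccgCACGTGtctgggaggggg
Tef, chr15:81802534-81802563, plus strand: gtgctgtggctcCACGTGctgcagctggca
Tef, chr15:81811264-81811293, plus strand: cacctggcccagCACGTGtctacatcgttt
Cry1, chr10:85185097-85185126, minus strand: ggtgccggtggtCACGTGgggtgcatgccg
A match is a description of letters and not evidence of binding.

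Per kilobase of exon, the receptor genes Nr1d2, Nr1d1 and Rora were the most abundant of the 8. Over all libraries Nr1d2 averaged 23.6 RPKM (CPM divided by kilobases of exon), Nr1d1 17.9 RPKM and Rora 14.9 RPKM. Clock followed at 6.03 RPKM, Rorb at 4.32 RPKM, Arntl at 3.34 RPKM and Npas2 at 3.28 RPKM, with Arntl2 lowest at 1.25 RPKM. Levels between groups are given below in CPM, which compares libraries and not genes.

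**Figure D1:**
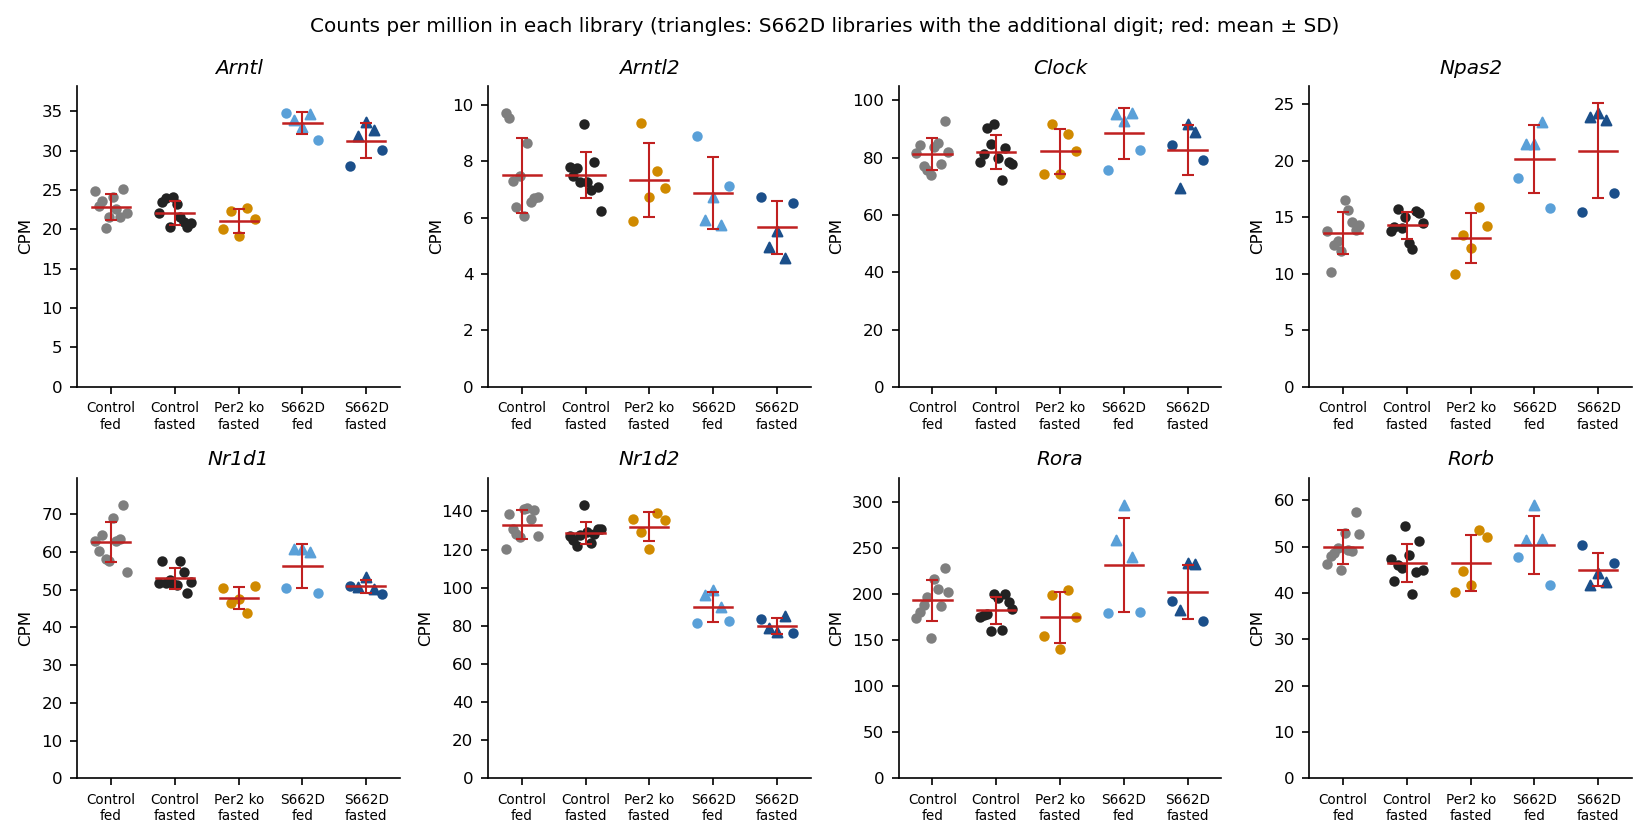
CPM of the 8 genes in every library by group; each point is 1 library, triangles are S662D libraries whose number has the final digit, and red lines give mean ± SD (n = 10 per control group, 5 in the others). The S662D points lie above all control points for Arntl and below all of them for Nr1d2, while Clock and Rorb overlap in all groups.

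The first comparison was between S662D and control mice. In S662D mice Arntl and Npas2 rose and Nr1d2 fell in both feeding states, and Arntl2 was lower in fasted mice. Nr1d1, Clock, Rora and Rorb did not pass the test in either state. In fed mice 3 of 8 genes were called, meaning an adjusted p below 0.05, against 4.69% of all 18063 genes tested. In fasted mice 4 of 8 were called, against 5.57% of all genes. The median log2 difference of the 8 genes was 0.07 fed and -0.01 fasted, beside -0.01 and -0.00 over all genes tested, since members moved in opposite directions. Single cells were not resolved, so more RNA per cell and more cells of a type cannot be told apart.

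Arntl (chromosome 7, 113207465 to 113314126, plus strand, GRCm38), which encodes BMAL1, held 31.3 to 34.8 CPM in S662D fed mice. The 5 values were 34.8, 33.9, 33.0, 34.7 and 31.3 CPM. Fed controls had a lowest value of 20.1, a median of 22.8 and a highest value of 25.1 CPM. The 5 fasted S662D libraries had 28.0, 31.9, 33.7, 32.6 and 30.1 CPM, and fasted controls ranged from 20.3 to 24.1 CPM with a median of 21.8 CPM. All 5 S662D libraries of each state lay above all 10 controls of that state. Arntl was thus 1.47-fold higher fed (log2 0.55, SE 0.05, edgeR adjusted p = 2.39e-09). In fasted mice it was 1.41-fold higher (log2 0.50, SE 0.05, adjusted p = 4.19e-08). Both calls were kept in all 30 alternative analyses of each state, with log2 values of 0.49 to 0.58 fed and 0.40 to 0.57 fasted. In the order of group means, only the step from fasted S662D to fed controls had no overlap. The difference between the S662D groups was 2.27 CPM, beside a pooled SD of 1.88 CPM, and the fed controls, fasted controls and labelled knockouts differed from their neighbour by less than 1 SD.

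Npas2 (chromosome 1, 39193731 to 39363236, plus strand), the forebrain counterpart of Clock, rose by a like amount but with a wider spread. Fed S662D libraries had 18.5, 21.5, 21.5, 23.5 and 15.9 CPM, and fed controls ran from 10.1 to 16.5 CPM with a median of 13.8 CPM. Fasted S662D libraries had 15.5, 23.9, 24.2, 23.7 and 17.1 CPM, and fasted controls ran from 12.2 to 15.8 CPM with a median of 14.3 CPM. In each state 4 of 5 S662D libraries lay above all controls, so the ranges overlapped through 1 library. The log2 difference in fed mice was 0.57 (SE 0.10, adjusted p = 0.00164). In fasted mice it was 0.54 (SE 0.10, adjusted p = 0.00231). The libraries with the additional digit held the high values: they averaged 22.2 CPM fed and 23.9 CPM fasted (n = 3 each), and those without it 17.2 and 16.3 CPM (n = 2 each). Without the digit libraries the log2 difference was 0.33 fed (adjusted p = 1.00) and 0.19 fasted (adjusted p = 0.997), and with the digit as a term it was 0.27 and 0.24 (adjusted p = 0.532 and 0.669). Only S662D libraries carry the digit, so the fit with this term compares S662D at the level without the digit with controls. It is not a check independent of the fit without those libraries. Against the second set of controls alone the adjusted p of Npas2 was 0.169 fed and 0.0510 fasted.

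The level of thalamic markers was examined beside Npas2. Their summed level over 7 genes had a median of 1525 CPM (1286 to 1565) in fasted S662D mice and 1292 CPM (1194 to 1372) in fasted controls. It had a median of 1400 CPM (1219 to 1650) in fed S662D mice and 1297 CPM (1135 to 1381) in fed controls. Of the 7 markers, 0 were called between S662D and control in either state, with a median log2 difference of 0.08 fed and 0.22 fasted. With this sum as a term in the model, an alternative chosen after seeing the data, the Npas2 difference was 0.42 fed (adjusted p = 0.00485) and 0.32 fasted (adjusted p = 0.0795). The same term left Arntl at 0.51 fed and 0.44 fasted and Nr1d2 at -0.62 fed and -0.76 fasted, all 4 still called.

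Clock (chromosome 5, 76209868 to 76304792, minus strand), the usual partner of BMAL1, was not called in any comparison. The 5 groups had means between 81.4 CPM (fed controls) and 88.4 CPM (fed S662D), and each neighbouring pair in that order differed by less than 1 SD. Fed S662D libraries had 75.7, 95.2, 92.9, 95.4 and 82.7 CPM, and the 3 highest, all with the additional digit, lay above the highest fed control (92.9 CPM, from unrounded values). The log2 difference was 0.12 in fed mice (SE 0.06, adjusted p = 0.256). It was 0.22 (adjusted p = 0.0263) with the digit libraries alone and -0.04 with those lacking the digit.

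Arntl2 (chromosome 6, 146796055 to 146833529, plus strand) was the least abundant of the 8, with 97 to 220 counts per library. Fasted S662D libraries had 6.74, 4.95, 5.53, 4.58 and 6.52 CPM, and fasted controls 6.24 to 9.32 CPM with a median of 7.38 CPM. The 3 libraries below all fasted controls were those with the additional digit. The log2 difference was -0.40 (SE 0.12, adjusted p = 0.0361). That call was lost in 12 of 30 alternatives, among them 7 that left out a single library (fasted control 1, 3, 5 or 8, or fasted S662D 2, 3 or 4), where the log2 difference was -0.34 at its smallest. With the digit libraries alone the log2 difference was -0.58 (adjusted p = 0.00191), and without them it was -0.18 (adjusted p = 0.997). In fed S662D mice the values were 8.91, 5.91, 6.74, 5.73 and 7.11 CPM, within or just below the 6.07 to 9.71 CPM of fed controls, and the difference was not called (log2 -0.14, SE 0.12, adjusted p = 0.539).

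Nr1d2 (chromosome 14, 18204054 to 18239127, minus strand), which encodes REV-ERBβ, showed the strongest evidence of change of all genes in fasted mice, with the lowest p among 18063. Fed S662D libraries had 81.4, 96.4, 98.6, 89.9 and 82.7 CPM, and fed controls 120.1 to 141.8 CPM with a median of 133.4 CPM. Fasted S662D libraries had 83.7, 78.8, 76.6, 85.1 and 76.0 CPM, and fasted controls 122.0 to 143.5 CPM with a median of 127.9 CPM. All S662D libraries of both states lay below all controls. Nr1d2 fell to 0.675 times the control level in fed mice (log2 -0.57, SE 0.05, adjusted p = 3.21e-11) and to 0.621 times in fasted mice (log2 -0.69, SE 0.05, adjusted p = 1.09e-13). The calls were kept in all 30 alternatives of each state, at -0.70 to -0.49 fed and -0.76 to -0.63 fasted. Arntl and Nr1d2 were the 2 of 8 genes whose S662D and control ranges did not overlap, in fed and in fasted mice alike. Among all genes tested, 0.841% had ranges without overlap in fed mice and 0.515% in fasted mice.

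Nr1d1 (chromosome 11, 98767932 to 98775333, minus strand), which encodes REV-ERBα, did not pass the test in the same comparison. Fed S662D libraries had 50.4, 60.9, 60.7, 59.9 and 49.1 CPM, beside 54.8 to 72.5 CPM (median 63.0 CPM) in fed controls, and only the 2 libraries without the additional digit lay below all controls. The log2 difference was -0.15 (SE 0.05, adjusted p = 0.0878), and -0.33 without the digit libraries (adjusted p = 0.0651). In fasted mice the log2 difference was -0.06 (SE 0.05, adjusted p = 0.586). Counting did not use strand, and 263 exon bases of Nr1d1 (8.55%) overlap the opposite gene Thra, a thyroid hormone receptor gene, which was not called in any comparison.

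Rora (chromosome 9, 68653786 to 69388246, plus strand), encoding the activator RORα, was not called in any comparison over all libraries, and its S662D libraries spread widely. Fed S662D values were 179.4, 259.4, 297.2, 240.8 and 180.4 CPM, and fed controls had 152.1 to 229.1 CPM with a median of 193.1 CPM. The 3 libraries with the additional digit lay above all fed controls and averaged 265.8 CPM, and the 2 without it averaged 179.9 CPM, inside the control range. Over all 5 libraries the log2 difference was 0.26 (SE 0.11, adjusted p = 0.145). It was 0.46 with the digit libraries alone (adjusted p = 0.00223), -0.11 without them, and 0.07 (adjusted p = 0.615) with the thalamic marker sum as a term. Fasted S662D libraries had 192.6, 182.9, 234.4, 233.3 and 171.0 CPM and overlapped the 160.6 to 200.6 CPM of fasted controls (log2 0.15, SE 0.11, adjusted p = 0.450).

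Rorb (chromosome 19, 18930605 to 19111196, minus strand), encoding RORβ, was not called in any comparison over all libraries. Fed S662D libraries had 47.9, 51.4, 59.0, 51.7 and 41.8 CPM, around the fed control range of 45.0 to 57.4 CPM. The 5 group means lay between 45.1 CPM (fasted S662D) and 50.4 CPM (fed S662D), and no neighbours in that order differed by more than 1 SD.

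**Figure D2:**
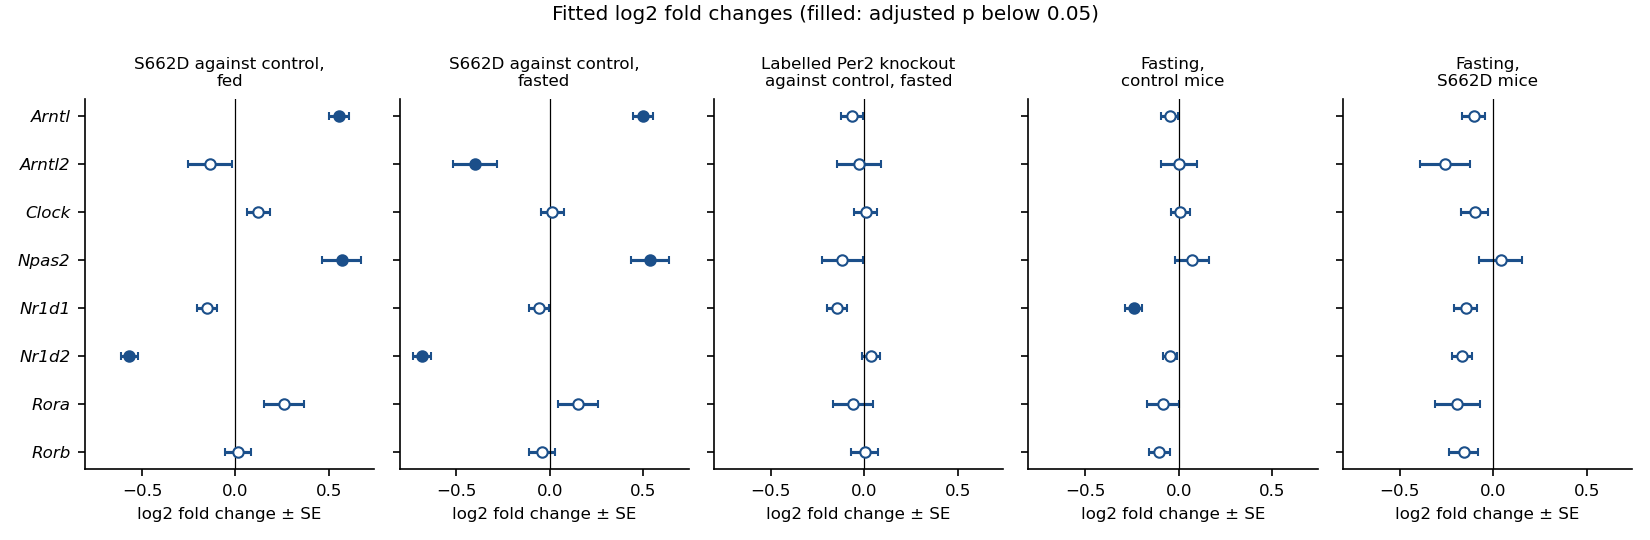
Fitted log2 fold changes ± SE of the 8 genes in 5 comparisons; filled points have an adjusted p below 0.05. Arntl and Npas2 lie to the right and Nr1d2 to the left in both S662D panels, the labelled knockout panel has 0 filled points, and fasting in controls has a filled point for Nr1d1 alone.

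The dependence on the library subsets differed between genes. Arntl and Nr1d2 were called in every subset of controls and of S662D libraries, in both states. For Arntl the S662D libraries without the digit averaged 33.1 CPM fed and 29.1 CPM fasted (n = 2 each), and those with it 33.9 and 32.8 CPM (n = 3 each). For Nr1d2 the corresponding means were 82.0 and 79.8 CPM without the digit and 95.0 and 80.2 CPM with it. Npas2 in both states, and Rora and Clock in fed mice, were high mainly in the digit libraries. No test of the digit itself was made, and its part in these differences was not tested.

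**Figure D3:**
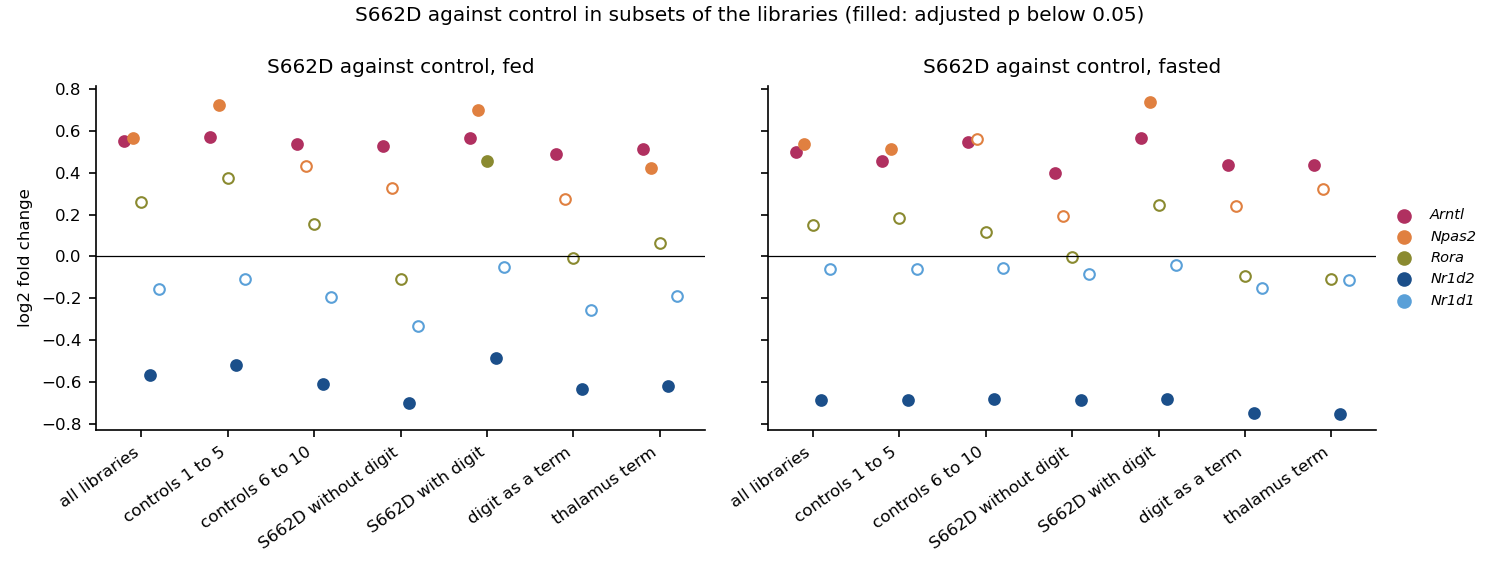
Log2 fold change of S662D against control for 5 of the genes (vertical axis) when the fit used all libraries, 1 set of controls, S662D libraries without or with the additional digit, or a model with the digit or the thalamic marker sum as a term; filled points have an adjusted p below 0.05. Arntl stays between 0.40 and 0.57 and Nr1d2 between -0.76 and -0.49 in both panels, whereas Npas2 and Rora spread widely.

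The second comparison was fasting against feeding. In controls Nr1d1 fell on fasting and was the only one of the 8 genes called, against 3.88% of all genes. Fed controls had 54.8 to 72.5 CPM with a median of 63.0 CPM, and fasted controls 49.2 to 57.6 CPM with a median of 51.9 CPM. Of the 10 fasted libraries, 8 lay below all fed ones. The log2 change was -0.24 (SE 0.04, adjusted p = 0.000286), a level 0.846 times that of fed mice. It was called in all 32 alternatives, at -0.20 in the first set of controls (adjusted p = 0.0344) and -0.29 in the second. Thra, which shares the overlap, had a log2 change of -0.06 (adjusted p = 0.579). The other 7 genes had log2 changes between -0.10 and 0.07, and the lowest adjusted p among them was 0.456. The paralog Nr1d2 was at 128.8 ± 5.93 CPM fasted and 133.1 ± 7.57 CPM fed (SD, n = 10 each; log2 -0.05, SE 0.04).

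In S662D mice 0 of 8 genes were called on fasting by edgeR and 0 by DESeq2, against 2.64% of all genes called by edgeR. At an unadjusted p below 0.05 there were 2 of 8, beside 14.3% of all genes. These 2 were Nr1d2 and Nr1d1. Nr1d2 was at 80.0 ± 4.16 CPM fasted and 89.8 ± 7.78 CPM fed (n = 5 each), a log2 difference of -0.17 (SE 0.05, adjusted p = 0.0924), and 3 of 5 fasted libraries lay below all fed ones. It passed the threshold in 4 of 22 alternatives, including the fit of the digit libraries alone (-0.24, adjusted p = 0.0202) and that without fed S662D replicate 1. Nr1d1 was at 50.8 ± 1.63 CPM fasted and 56.2 ± 5.89 CPM fed, a log2 difference of -0.15 (SE 0.06, adjusted p = 0.248). Between the libraries without the digit that difference was 0.01. Rorb was called on fasting with the digit libraries alone (-0.33, adjusted p = 0.0332) and stood at 0.11 without them, and Rora was called with the thalamic sum as a term (adjusted p = 0.00819). The difference between the fasting responses of S662D and control mice was tested directly. It was called for 0 of 8 genes by edgeR and by DESeq2, with 0 of 8 at an unadjusted p below 0.05, and for 0% of all genes (0 of 18063, with 1151 at an unadjusted p below 0.05). Estimates for the 8 genes ran from -0.26 (Arntl2, SE 0.17) to 0.09 (Nr1d1, SE 0.08), so the smaller Nr1d1 change in S662D mice was not shown to differ from that in controls.

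The third comparison used the fasted libraries labelled Per2 knockout. None of the 8 genes was called against fasted controls by edgeR (0 of 8) or DESeq2 (0 of 8), and only 0.0277% of all genes were called by edgeR. At an unadjusted p below 0.05 there was 1 of 8, beside 6.07% of all genes. Log2 differences ran from -0.15 to 0.04. The gene with the low unadjusted p was Nr1d1, with 50.5, 46.6, 47.6, 43.9 and 51.0 CPM, of which 3 lay below all fasted controls (log2 -0.15, SE 0.06, p = 0.0120, adjusted p = 0.748). Arntl had 20.0, 22.4, 19.1, 22.7 and 21.3 CPM, Npas2 9.97, 13.4, 12.3, 15.9 and 14.2 CPM, and Nr1d2 136.0, 129.4, 120.3, 139.0 and 135.6 CPM in these libraries, all near the control values.

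Against fasted S662D mice, the labelled knockouts had lower Arntl (log2 -0.56, SE 0.06, adjusted p = 1.26e-07), lower Npas2 (-0.65, SE 0.12, adjusted p = 0.00115) and higher Nr1d2 (0.72, SE 0.05, adjusted p = 1.22e-12). These 3 of 8 genes compare with 7.34% of all genes called. The ranges of Arntl and Nr1d2 did not overlap, as was so for 4.92% of all genes. The Npas2 call was lost without the digit libraries (-0.31, adjusted p = 0.429), with the digit as a term and with the thalamic sum as a term, and 4 of 7 thalamic markers were lower in the labelled knockouts than in S662D mice. This comparison shares the fasted S662D libraries with the one above.

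Targets of the 8 proteins were followed in 2 lists. Of 13 E-box targets, driven by BMAL1 with CLOCK or NPAS2, 7 fell in fed S662D mice and 6 in fasted ones, and 0 rose in either. Per2, whose protein is altered in these mice, is counted among those that fell in both states. Whether its level follows E-box drive or the way the S662D form is carried was not tested. Among all 18063 genes, 284 fell and 563 rose in fed mice, and 402 fell and 605 rose in fasted mice. The targets that did not pass in either state were Per1, Cry2, Hlf, Bhlhe41, Usp2 and Nampt, with log2 differences from -0.14 (Per1) to 0.07 (Cry2) in fed mice. The median log2 difference of the 13 genes was -0.20 fed and -0.14 fasted, beside -0.01 and -0.00 over all genes. The 7 that fell moved opposite to Arntl. Ciart, a transcriptional repressor of the clock whose promoter windows are printed above, fell from 11.7 ± 1.28 CPM (n = 10) to 6.49 ± 1.30 CPM (n = 5) in fed mice (log2 -0.87, SE 0.10, adjusted p = 5.14e-08). In fasted mice it fell from 13.9 ± 1.15 to 7.57 ± 1.11 CPM (log2 -0.88, SE 0.09, adjusted p = 2.34e-08). Per3, a relative of Per2, changed by -0.70 fed and -0.82 fasted, and Dbp, a PAR bZIP activator of output genes, by -0.65 and -0.57. Tef, a PAR bZIP relative of Dbp, fell from 310.7 ± 9.71 to 222.6 ± 7.55 CPM fed and from 298.9 ± 11.3 to 210.5 ± 11.6 CPM fasted. The calls for Ciart, Per3, Per2 and Tef were kept in all 30 alternatives of each state. Dbp was not called without the digit libraries (-0.50 fed, adjusted p = 0.498, and -0.33 fasted, adjusted p = 0.906). Wee1, a cell cycle kinase gene outside the naming rule and named to complete the count, fell in both states, and Bhlhe40 was called in fed mice close to the threshold (log2 -0.20, adjusted p = 0.0436, lost in 20 of 30 alternatives). The Wee1 difference was -0.31 fed and -0.22 fasted, and the fasted call was lost in 11 of 30 alternatives.

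RORE and REV-ERB targets were tested for 8 of 11 genes, and 3 rose in S662D mice in both states with 0 falling, in comparisons with 4.69% (fed) and 5.57% (fasted) of all genes called. The list's median log2 difference was 0.20 fed and 0.08 fasted. Fabp7, a brain fatty acid binding protein gene, rose from 12.4 ± 1.58 CPM (n = 10) to 23.7 ± 3.12 CPM (n = 5) in fed mice (log2 0.94, SE 0.10, adjusted p = 4.31e-09). In fasted mice it rose from 10.8 ± 1.57 to 15.8 ± 2.65 CPM (log2 0.56, SE 0.10, adjusted p = 0.00103). Cry1, a clock repressor, rose from 28.1 ± 1.52 to 36.9 ± 1.58 CPM fed and from 26.7 ± 1.76 to 35.3 ± 1.68 CPM fasted, log2 differences of 0.39 and 0.40 (SE 0.05 each). Nfil3, a bZIP repressor, changed by 0.34 fed and 0.44 fasted, calls that were lost without the digit libraries and with the thalamic sum as a term. Against S662D the labelled knockouts had higher Ciart, Per3, Per2 and Tef (4 of 13) and lower Fabp7, Cry1 and Nfil3 (3 of 8), beside 7.34% of all genes called (472 higher and 853 lower), and of these the Nfil3 call was lost in 10 of 22 alternatives.

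**Figure D4:**
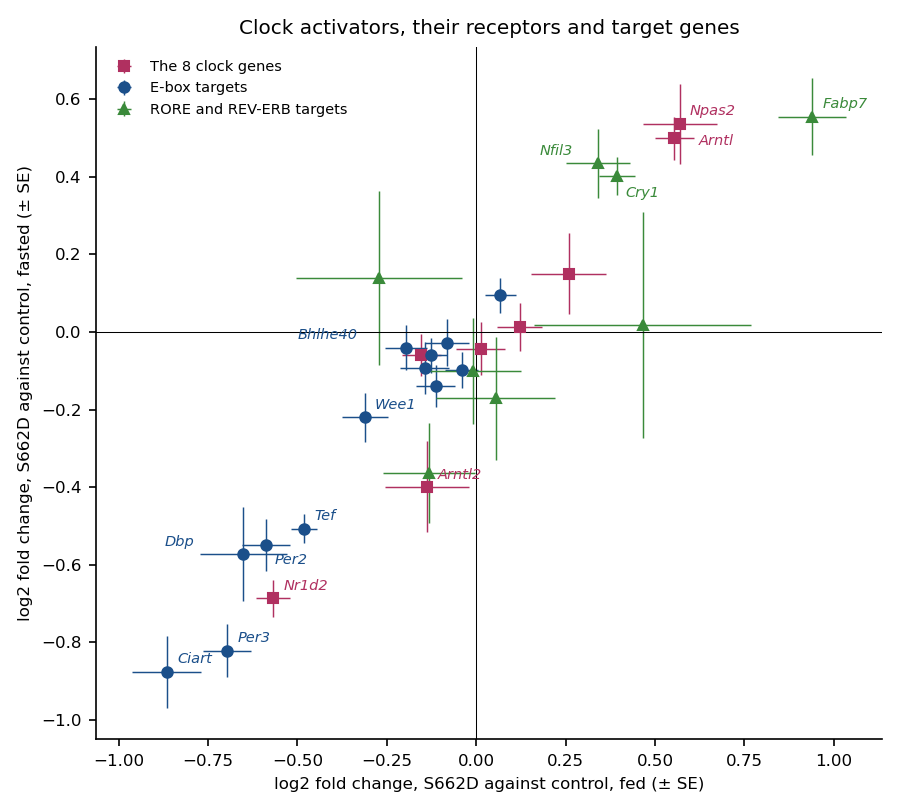
Log2 fold change (± SE) of S662D against control in fed mice (horizontal axis) and fasted mice (vertical axis) for the 8 genes, the 13 E-box targets and the 8 tested RORE and REV-ERB targets; names mark genes called in at least 1 state. Nr1d2 lies among the E-box targets Ciart, Per3, Dbp, Per2 and Tef at the lower left, and Arntl and Npas2 lie with Cry1, Nfil3 and Fabp7 at the upper right.

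On fasting in controls, the E-box targets split. Per1, a clock repressor gene that also answers to glucocorticoids, rose by 0.36 on the log2 scale (61.6 ± 3.46 to 79.1 ± 6.95 CPM, n = 10 each, adjusted p = 1.42e-05). Ciart (0.25) and Usp2, a deubiquitinase gene (0.18), rose too. Bhlhe40, a transcriptional repressor gene, changed by -0.32 (70.8 ± 5.02 to 56.5 ± 2.88 CPM, adjusted p = 8.04e-06) and Dbp by -0.33 (adjusted p = 0.0434). Thus 3 of 13 rose and 2 fell, in a comparison where 3.88% of all genes were called (397 higher and 304 lower). The Dbp call was lost in 18 of 32 alternatives, the Ciart call in 11, the Usp2 call in 3 and the Per1 call in 1. For Usp2 these include each control set taken alone, and for Per1 it was the second control set (edgeR adjusted p = 0.0505). The Bhlhe40 call was kept in all 32. In S662D mice Per1 rose (0.41, adjusted p = 0.000589), and of the RORE targets Fabp7 changed by -0.59 (adjusted p = 0.000589). Both calls were lost without the digit libraries (Per1 adjusted p = 0.423, Fabp7 -0.35 with adjusted p = 0.9655). The Per1 call was also lost without the libraries high in choroid plexus markers. No RORE target was called on fasting in controls (0 of 8).

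Among 18 cofactor genes of these proteins, 1 was called between the labelled knockouts and S662D, beside 7.34% of all genes. It was Sirt1, a deacetylase gene (0.28, adjusted p = 0.0355), a call lost in 12 of 22 alternatives. Of 10 bHLH-PAS relatives of Arntl and Clock, 3 were called in fasted S662D mice, against 5.57% of all genes: Epas1 (0.33) and Hif1a (-0.17), which encode oxygen-regulated factors, and Arnt (-0.22), which encodes their shared partner. Epas1 was also lower in the labelled knockouts than in S662D (-0.36), a comparison that shares the fasted S662D libraries. That call was lost in 4 of 22 alternatives, among them the fit without the digit libraries (-0.12, adjusted p = 0.562). The Epas1, Hif1a and Arnt differences in fasted S662D mice were not called without the digit libraries, and over all 30 alternatives the calls were lost in 4, 12 and 11. Endothelial markers, among which Epas1 is strongly expressed, moved in the same comparison: 3 of 5 were higher in fasted S662D mice, with summed levels of 165.9 to 220.1 CPM beside 152.7 to 194.2 CPM in fasted controls, and their part in the result was not tested.

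The genes whose levels followed each of the 8 most closely over the 35 libraries are given as a description, by Pearson r of log2 CPM among 15478 genes averaging 1 CPM or more. Nr1d2 was most like Tef (r = 0.95), Per3 (0.92) and Per2 (0.90). Arntl was most like Cry1 (0.88), Cntnap1 (0.86) and Kank1 (0.85). After removal of the group means, r was lower for all 6: 0.24 for Nr1d2 with Tef, 0.22 with Per3 and 0.44 with Per2, and 0.07 for Arntl with Cry1, 0.51 with Cntnap1 and 0.27 with Kank1. Arntl and Nr1d2 themselves had r = -0.85 over all libraries and 0.15 within groups. Nr1d1 was most like Bhlhe40 (0.75, and 0.31 within groups), Plekho2 (0.73, and 0.10) and Zdhhc9 (0.72, and 0.61). Clock was close to Aak1 (0.91, and 0.90 within groups) and Taok1 (0.90), and Rora was most like Atp2b1 (0.94, and 0.93 within groups), Rgs7bp (0.94) and Gabrb2 (0.91). Npas2 was most like Tanc1 (0.90), Synpo2 (0.89, and 0.85 within groups) and Rusc2 (0.88), and Synpo2 is one of the 7 thalamic markers. Rorb was most like Mfap3l (0.81), Rtn4 (0.79) and Rnd3 (0.73), and Arntl2 most like Mtf2 (0.77), Guf1 (0.75) and Stx3 (0.75). The points share library depth and tissue composition, and what either adds to r was not tested.

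Within groups, Rora, Rorb, Nr1d2 and Clock varied together between libraries, and no pair with Nr1d1 passed. Deviations of log2 CPM from the group mean were correlated for all 28 pairs of the 8 genes over 35 libraries, with a permutation test (100000 resamples within groups, 2-sided, smallest p 1e-05). Of 28 pairs, 10 passed an adjusted p of 0.05 and all 10 were positive. The share of pairs passing among other genes was not computed, so the 10 pairs are not shown to be particular to these genes. Some genes outside the 8, picked above as most alike, had higher r within groups: 0.95 for Rora with Rgs7bp and 0.90 for Clock with Aak1. Clock and Rora had r = 0.73 and rho = 0.74 (permutation p = 2e-05 for both, adjusted p = 0.00056), with r = 0.71 after the 2 libraries farthest from the median of Clock were left out. Within the first and second set of controls r was 0.37 and 0.93, and within the S662D libraries 0.80 (n = 10 each), and with control libraries alone the adjusted p was 0.0643. Nr1d2 and Rora had r = 0.69 and rho = 0.63 (permutation p = 0.00015 and 0.00076, adjusted p = 0.0021 and 0.00532), r = 0.65 without the 2 farthest libraries, and 0.48, 0.52 and 0.81 in the same 3 sets. Rora and Rorb had r = 0.65 and rho = 0.62 (permutation p = 0.00023 and 0.00074, adjusted p = 0.00215 and 0.00532), r = 0.62 without the 2 farthest, and 0.72, 0.77 and 0.56 in the 3 sets. The other 7 pairs that passed had r between 0.42 (Arntl with Rora) and 0.63 (Npas2 with Rora). Arntl and Npas2, both higher in S662D mice, had r = 0.44 and rho = 0.43 (permutation p = 0.0149 and 0.0152, adjusted p = 0.0418 and 0.0386), but 0.27 and -0.38 in the control sets and 0.86 within the S662D libraries, so the relation did not hold among controls. Nr1d1 and Nr1d2 had r = 0.40 (rho = 0.36, adjusted p = 0.116 and 0.138), which did not pass, and Arntl with Nr1d2 had r = 0.15 (rho = 0.12, adjusted p = 0.457 and 0.542). With control libraries alone, 5 of the 10 pairs passed: Rora with Rorb, Nr1d2 with Rora and with Rorb, and Clock with Rorb and with Arntl. The permutation treats the libraries of a group as exchangeable, although the control sets and the digit libraries can differ. With deviations and resampling kept within these library subsets, an alternative chosen after seeing the data, 5 pairs passed: Clock with Rora (r = 0.75, adjusted p = 0.00084), Rora with Rorb (0.70, adjusted p = 0.00168), and Arntl with Clock, Nr1d2 with Rora and Nr1d2 with Rorb (0.50, 0.53 and 0.50, adjusted p = 0.0403 each). Npas2 with Rora (0.37, adjusted p = 0.232), Clock with Nr1d2 (0.32, adjusted p = 0.248), Clock with Rorb, Arntl with Rora and Arntl with Npas2 did not pass. Among the 6 digit libraries alone, r was -0.44 for Npas2 with Rora and 0.07 for Clock with Nr1d2.

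**Figure D5:**
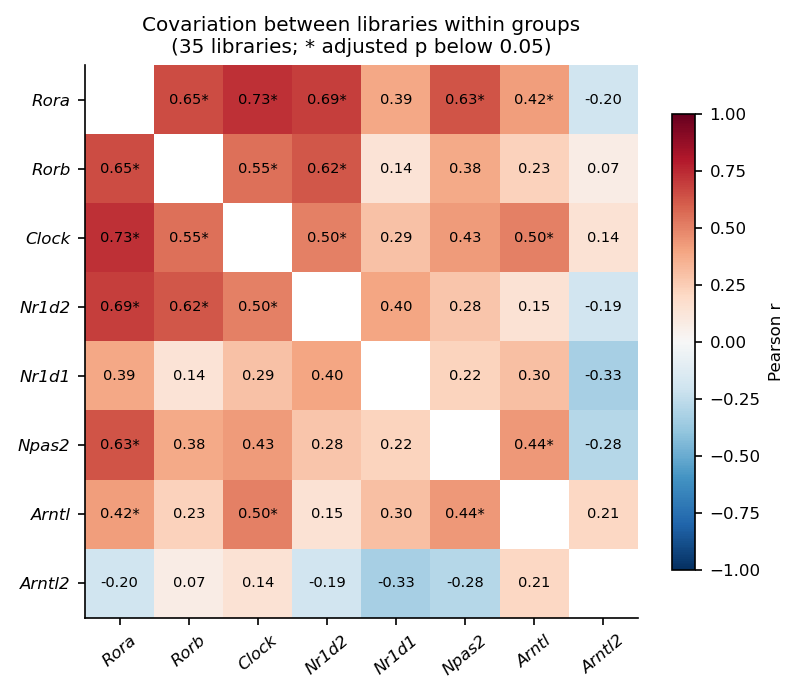
Pearson r between the 8 genes of deviations of log2 CPM from the group mean over 35 libraries (color scale from -1 to 1); asterisks mark the 10 pairs with an adjusted p below 0.05. Rora, Rorb, Clock and Nr1d2 form the block of values between 0.50 and 0.73, while Arntl2 has values from -0.33 to 0.21 with the others.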

How the data were processed

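RNA was measured in 35 libraries grouped by their labels. The authors deposited raw counts per gene, made with featureCounts 2.0.1 on GENCODE M12 and mm10, without a strand option and with multi-mapping reads counted, per the file headers; STAR 2.7.10b is named in the submitters' processing notes. Of the 50-base stretches in annotated transcripts, 7.27% of those of Nr1d1 and 5.13% of those of Nr1d2 also occur in other genes. For the rest of the 8 genes the share was 0% to 0.893%. What reads from such stretches add to the counts was not tested. Lines without a gene name numbered 0. Genes passing filterByExpr (minimum count 10) numbered 18063. All libraries entered 1 edgeR 4.0.16 fit (R 4.3.3, TMM, robust quasi-likelihood, common biological coefficient of variation 0.0900), with Benjamini-Hochberg adjustment over all genes tested in a comparison. Standard errors came from the F statistic, and covariation and likeness used log2 CPM with prior count 2. CPM and RPKM used TMM-scaled totals. No 2 libraries were identical (lowest chi-square per degree of freedom within a group 2.53). On simulated data with 18063 genes, 68.7% of changes of 0.5 (log2) on fasting in controls and 71.6% of those of 0.5 for S662D fasted were recovered. For changes of 0.25 the shares were 52.2% and 32.8%. The simulated libraries held no difference between control sets or between digit and other libraries. The 8 genes, all lists and the rule for named genes (the 8 genes, Per2, overlapping genes, up to 3 called genes in each direction per list and comparison, the 3 most alike genes) were chosen with earlier results of these data known; some genes the rule picks are not reported here. Alternatives changed the filter, normalization, tool (DESeq2 1.42.0), covariates and libraries. Same-numbered libraries of 2 groups showed no clear pairing, which does not exclude one.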

Additional observations from a re-analysis of the deposited data

Results flagged for a closer look

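Of 40 sets of values (8 genes in 5 groups), 1 held a library that stood apart from the others; chance alone flags about 1 set in 20. Nr1d2 in fasted control replicate 5 was at 143.5 CPM, the next highest library of that group at 130.9 CPM, and the gap was 0.585 of the group's whole range. Nr1d2 in fasted S662D mice remained called without this library, as in every other alternative run.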

How the results depend on the processing

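The number of the 8 genes called was the same in all 32 alternatives for fasting in controls, all 45 for the difference between fasting responses and all 27 for the labelled knockout against control. On fasting in S662D mice it was 1 with library size only, 2 with the digit libraries alone and 2 with the thalamic sum as a term (0 to 1 when a library was left out). For S662D against control it was 5 in fed mice with the digit libraries, and 2 against the second control set, without the digit libraries and with the digit as a term (3 to 4 when a library was left out). In fasted mice it was 2 against the second control set, without the digit libraries, with the digit as a term and with the thalamic sum as a term (3 to 4 when a library was left out). For the labelled knockout against S662D it ran from 2 to 4. Covarying pairs numbered 5 with controls only and 5 within library subsets. Without the digit libraries, signs turned for Nr1d1 (0.007), Rora (0.017) and Rorb (0.112) on fasting in S662D mice, and for Clock (-0.04) and Rora (-0.1063) in fed S662D mice, Rora also with the digit as a term (-0.0084); none of these 6 values was called. The causes were not tested.

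Counts of all genes called moved more. Fasting in controls gave 701 genes (304 in the second control set, 1315 in the first), fasting in S662D mice 476 (7 without and 683 with the digit libraries), S662D against control 847 fed (16 without and 3106 with the digit libraries) and 1007 fasted (20 with the digit as a term, 3148 with the digit libraries), and the labelled knockout 5 against control (1 without libraries high in choroid plexus markers, 99 against the second control set) and 1325 against S662D (26 and 2986 without and with the digit libraries). The difference between fasting responses gave 486 genes against the first control set, 9 with the digit libraries alone and 0 in every other alternative run. Leaving out fed S662D replicate 4 gave 66 genes and replicate 1 gave 1667; leaving out fasted S662D replicate 4 gave 154 and replicate 1 gave 1802. Same-numbered libraries correlated at -0.191 to 0.26 in their deviations, which showed no clear pairing but cannot exclude one. Between the S662D groups, 2 of 5 pairs had r above 0.1. With the replicate number as a block, 697, 438, 0, 1124, 1092, 4 and 1249 genes were called in the 7 comparisons. The call of no one of the 8 genes changed with this block. Arntl2, with 97 to 220 counts, is the gene whose precision depth limits most.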
